A study of Mus musculus with 9 samples.

Results

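The genes described here encode, or make, surface features by which pluripotent stem cells are recognised and sorted: Alpl, Fut4, Fut9, Pecam1, Icam1, Kit, Cd9, Cd24a, Cd44 and Prom1. These 10 genes were chosen by name, with earlier results of these data known. Each was read from the brightest probe set that carries its symbol alone in the platform annotation. That is the probe set with the highest mean log2 intensity over the 9 arrays. They are 10 of the 19939 genes that could be read in this way, and each had 1 such probe set. P19 is a mouse embryonal carcinoma (EC) cell line, and EC cells are derived from teratocarcinomas. P19 NTES7 is an embryonic stem (ES)-like line grown from blastocysts that were cloned by placing P19 nuclei into enucleated oocytes, and it is 1 line, picked for its karyotype. R1 is a mouse ES cell line. The sample labels call the second line only pluripotent stem cells made from P19 cells, and its arrays were taken as P19 NTES7, the line that the study's array results name. All 3 lines were grown in ES medium with 15% fetal bovine serum and 1000 units/ml leukemia inhibitory factor, and 3 biological repeats of each line were hybridised. The methods describe the ES cells collected for RNA as feeder free. For P19 NTES lines and other pluripotent cells, the methods describe culture on mouse embryonic fibroblasts treated with mitomycin C. They name no feeders for P19. In each comparison with P19, the line and the feeder culture therefore cannot be told apart. Since no source says whether the repeats came from separate cultures, the p-values measure only the spread between these arrays.

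In mouse ES cells, tissue-nonspecific alkaline phosphatase, encoded by Alpl, gives the classic histochemical stain of undifferentiated colonies. The carbohydrate SSEA-1 (Lewis x, also called CD15) is the classic cell-surface antigen, and it is made by the fucosyltransferases FUT9 and FUT4. PECAM1 (CD31), ICAM1 (CD54), KIT (CD117), the tetraspanin CD9, CD24, the hyaluronan receptor CD44 and prominin-1 (CD133) are proteins of the membrane, and antibodies against them are used to follow pluripotent cells during culture, differentiation and reprogramming. EC and ES cells share many of these antigens, so the question here was how far the RNA of each differs between an EC line, a line cloned from it and an ES line.

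Kit, Pecam1 and Cd44 were higher in R1 than in P19, by 4.25-fold, 2.72-fold and 3.01-fold. Compared with P19, P19 NTES7 was also higher in Cd44, by 3.18-fold, and Kit was 2.59-fold lower in P19 NTES7 than in R1. No member was called lower in either line against P19. Alpl, Fut9 and Fut4, which underlie the alkaline phosphatase and SSEA-1 stains, were called in no comparison. A gene was called where the adjusted p from limma was under 0.01 and the fold over 2.

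Intensities are on the linear scale of the deposited values, and the median of all 28853 probe sets was 16.9, with medians of single arrays from 16.5 to 17.5. Arrays of the same line correlated at Pearson's r of 0.989 to 0.998 over probe sets, which are not independent replicates. R1 replicate 3 stood somewhat apart from the other R1 arrays: it was the lowest R1 array for 48.4% and the highest for 38.6% of all probe sets, and it was the highest for 8 of the 10 members. Values without this array are therefore given below. An array measures the RNA of a whole culture, so fewer cells that express a gene and less RNA per cell cannot be told apart.

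The labels of the lines were compared with marker genes. Pou5f1, a core pluripotency factor, had a mean intensity of 2196 ± 109 in P19, compared with 1471 ± 199 in P19 NTES7 and 1470.1 ± 153 in R1 (SD, n = 3 arrays). Sox2, another core factor, was at 665 ± 68.4, 542 ± 4.37 and 884 ± 43.5 in the same order. Dppa5a and Zfp42, genes of naive ES cells, were at 19.5 ± 1.64 and 19.7 ± 5.19 in P19, at 125 ± 10.2 and 41.7 ± 3.19 in P19 NTES7, and at 2238 ± 196 and 289 ± 37.8 in R1. A different pattern was seen in Utf1, whose product binds chromatin in undifferentiated cells, at 471 ± 70.4, 73.5 ± 20.3 and 584 ± 79.1, and was called lower in P19 NTES7 than in each of the other lines. Of the 10 pluripotency markers, 4 were called higher and 0 lower in R1 compared with P19. In P19 NTES7, 3 were called higher and 1 lower compared with P19, and 0 higher and 4 lower compared with R1. Over all probe sets, 7.40%, 2.91% and 4.52% were called in these 3 comparisons, here and for the marker lists below. The Zfp42 call between P19 NTES7 and P19 was lost without P19 replicate 3 (0.968 on the log2 scale). It was also lost when 16 was added to each intensity (0.70). The Dppa4 call between P19 NTES7 and R1 was lost without R1 replicate 3 (-0.972). None of the 10 markers was below the array median in any line. Their summed intensity ran from 5895 to 6229 in P19, with a range of 5125 to 5778 in P19 NTES7 and of 9274 to 9625 in R1. The sum is weighted to the brightest genes, and the mean log2 intensity put P19 and P19 NTES7 in the other order. It ran from 7.75 to 7.98 in P19, from 8.07 to 8.20 in P19 NTES7 and from 9.32 to 9.40 in R1. Fibroblast markers followed the lines too. The methods describe the collected ES cells as feeder free, and feeder RNA left in them was not measured separately. Their summed intensity over 23 measured genes ran from 1329 to 1373 in P19, with a range of 2566 to 3204 in P19 NTES7 and of 3927 to 4399 in R1, where replicate 3 was the highest array, and 16, 2 and 1 of them were below the array median in the 3 lines. Of these 23 genes, 17 were called higher in R1 than in P19 and 14 in P19 NTES7 than in P19, with 0 lower in both comparisons. Against R1 the P19 NTES7 arrays had 0 higher and 4 lower. With 16 added to each intensity, Col6a2, Loxl1, Pdgfrb and Twist2 lost the call between R1 and P19. Between P19 NTES7 and P19, Col6a1, Col6a2, Pdgfrb and Postn lost it. Thbs1, a matricellular protein of fibroblasts, was at 16.4 ± 1.50 in P19, against 206 ± 27.9 in P19 NTES7 and 448 ± 32.2 in R1, and Dcn, the matrix proteoglycan decorin, at 8.45 ± 0.245, 80.6 ± 7.23 and 232 ± 70.5. Cd44, Icam1, Cd9 and Alpl are also expressed by fibroblasts, and the part of fibroblast RNA in the members' differences was not tested.

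**Figure D1:**
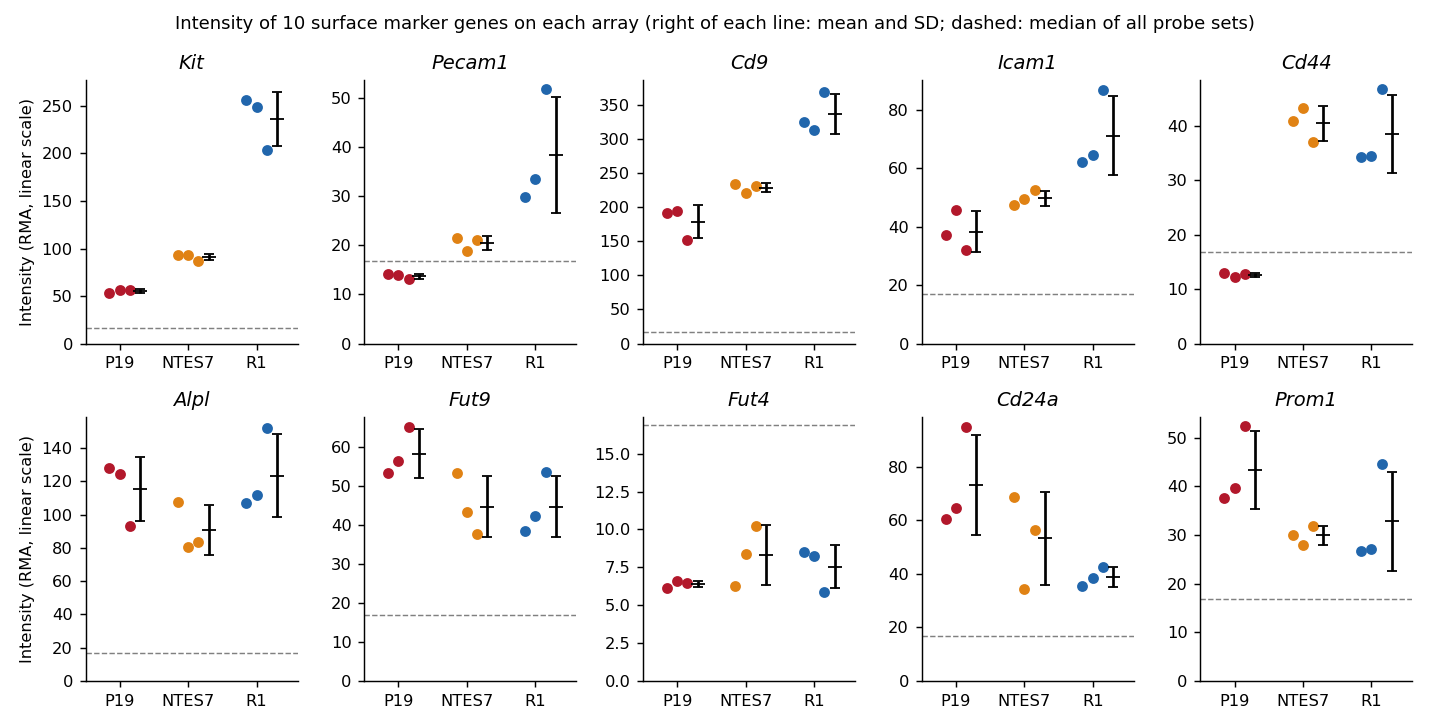
Intensity on the linear scale (vertical axis) of each surface marker gene on the 3 arrays of P19, P19 NTES7 and R1 (points), with the mean and SD of each line to the right of its points and the median of all probe sets as a dashed line. Kit, Pecam1, Cd9 and Icam1 step up from P19 over P19 NTES7 to R1 with no overlap of their arrays, Cd44 is below the dashed line in P19 only, and Fut4 is below it in all lines.

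Kit, Pecam1, Cd9 and Icam1 were the 4 members with the order P19, P19 NTES7, R1 from lowest to highest, and in each of them all 3 arrays of a line lay apart from those of the next, which held for 3.39% of all probe sets. For Kit, both steps of this order passed the adjusted p limit. For Pecam1 and Cd9, the step from P19 NTES7 to R1 passed it and the step from P19 to P19 NTES7 did not, and for Icam1 neither step did. These comparisons share arrays, so the steps are not independent of each other.

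Kit is the receptor tyrosine kinase for stem cell factor and acts in germ cells, melanocytes and blood stem cells as well as in ES cells. Its intensity was 53.2, 56.6 and 56.3 on the P19 arrays, 92.7, 93.3 and 87.1 on the P19 NTES7 arrays and 257, 249 and 203 on the R1 arrays. The 3 lines were well separated, and R1 replicate 3 was the lowest of the R1 arrays. The mean was 55.3 ± 1.90 in P19, compared with 91.0 ± 3.43 in P19 NTES7 and 236 ± 28.8 in R1 (SD, n = 3). From P19 to R1, Kit rose by 2.09 ± 0.10 on the log2 scale (SE; limma adjusted p = 4.91e-09), and without R1 replicate 3 the difference was 2.19. From P19 to P19 NTES7, the log2 difference was 0.72 ± 0.10, or 1.64-fold, which passed the adjusted p limit (limma adjusted p = 2.87e-04) but not the fold limit. Kit was thus the member in which each pair of lines passed the adjusted p limit. P19 NTES7 was lower than R1 by a log2 difference of -1.37 ± 0.10 (limma adjusted p = 5.27e-07).

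Pecam1 encodes a homophilic adhesion molecule of endothelium, platelets and leukocytes that mouse ES cells also carry. Its intensity was 14.1, 13.9 and 13.1 in P19, against 21.5, 18.8 and 21.0 in P19 NTES7 and 29.9, 33.4 and 51.7 in R1. All P19 arrays were below the median of all probe sets, and R1 replicate 3 was far above the other R1 arrays. The means were 13.7 ± 0.538, 20.4 ± 1.44 and 38.3 ± 11.7 (SD, n = 3). Pecam1 rose from P19 to R1 by 1.44 ± 0.16 on the log2 scale (SE; limma adjusted p = 1.06e-05), a fold taken over a level near the array floor, and by 1.21 without R1 replicate 3. This call was lost when 16 was added to each intensity before taking log2, with a log2 difference of 0.85. It was also lost under the methods' analysis of variance on linear values, 1 test over all 3 lines, whose unadjusted p missed the limit. P19 NTES7 and P19 differed by 0.58 (1.49-fold, limma adjusted p = 0.0237), which did not pass. The comparison with R1 lay near the fold limit and turned on 1 array. P19 NTES7 and R1 differed by -0.87 (limma adjusted p = 0.00126), 1.82-fold and under the fold limit, and without R1 replicate 1 by -1.03, which was called (limma adjusted p = 3.92e-04).

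Endothelial markers were looked at beside Pecam1, since endothelium is its best known source. The summed intensity of 13 such genes ran from 180.0 to 190.6 in P19, with a range of 177.8 to 195.5 in P19 NTES7 and of 192.4 to 232.9 in R1. Cdh5, Kdr, Tie1, Esam, Vwf, Emcn, Erg and Sox18 were below the array median in all lines. Only Flt1, a VEGF receptor, was called among them, at 14.0 ± 0.761 in P19, against 26.5 ± 1.80 in P19 NTES7 and 38.1 ± 3.32 in R1, a call that was lost with 16 added (0.85 on the log2 scale), and Tek, the angiopoietin receptor, was at 26.8 ± 1.55, 16.3 ± 0.893 and 33.5 ± 15.3. Among 12 blood cell genes, whose summed intensity ran from 142 to 144 in P19, with a range of 150.5 to 162 in P19 NTES7 and of 265 to 278 in R1, Cd34 and Laptm5 were called higher in R1 than in P19 and lower in P19 NTES7 than in R1, and Runx1 higher in P19 NTES7 than in P19. Cd34 encodes a sialomucin of blood progenitors and vessels and was at 9.94 ± 1.20, 13.7 ± 1.27 and 44.4 ± 11.1 in P19, P19 NTES7 and R1, and Laptm5, a lysosomal protein of blood cells, was at 10.4 ± 0.858, 17.2 ± 0.700 and 105 ± 2.99. Runx1, a transcription factor of blood formation, was at 9.25 ± 0.324, 19.6 ± 1.37 and 17.3 ± 1.15, with a call that was also lost with 16 added (0.49), and Coro1a, an actin-binding protein of leukocytes, had its highest mean in P19, at 29.6 ± 3.03, 17.4 ± 2.31 and 18.6 ± 2.66, and was not called. Ptprc, the pan-leukocyte gene, and Spi1 were below the array median in all lines.

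Cd9 encodes a tetraspanin, a scaffold of membrane microdomains that is needed on eggs for sperm fusion and is high on mouse ES cells. The P19 arrays read 191, 193 and 151, the P19 NTES7 arrays 233, 221 and 230.4, and the R1 arrays 325, 313 and 369. No array of 1 line overlapped those of another. The means were 178 ± 23.7, 228 ± 6.68 and 336 ± 29.2 (SD, n = 3). Between P19 and R1 the log2 difference was 0.92 ± 0.11 (SE; limma adjusted p = 2.57e-05), 1.89-fold and so under the fold limit, and without R1 replicate 3 it was 0.85. Between P19 and P19 NTES7 it was 0.36 (limma adjusted p = 0.0402), and between R1 and P19 NTES7 it was -0.55 (limma adjusted p = 0.00244), 1.47-fold.

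Icam1 encodes the immunoglobulin-family ligand of the leukocyte integrin LFA-1. It was at 37.3, 45.6 and 31.9 in P19, against 47.4, 49.3 and 52.4 in P19 NTES7 and 62.2, 64.5 and 86.7 in R1. The highest P19 array and the lowest P19 NTES7 array were close, and R1 replicate 3 was again the highest array. The means were 38.2 ± 6.91, 49.7 ± 2.53 and 71.1 ± 13.5 (SD, n = 3). The log2 difference between R1 and P19 was 0.89 ± 0.15 (SE; limma adjusted p = 3.09e-04), 1.86-fold and under the fold limit. Without P19 replicate 2 it was 1.03, which was called, and without R1 replicate 3 it was 0.74. P19 NTES7 differed from P19 by 0.39 (limma adjusted p = 0.0851) and from R1 by -0.50 (limma adjusted p = 0.0218), and neither passed.

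Since Kit, Cd9 and Icam1 shared this order, their promoters are shown together with that of Cd44, whose P19 NTES7 and R1 arrays overlapped. The sequences are from RefSeq (build GRCm38.p6) and run 5′ to 3′ on the strand of the gene, from 250 bases before the annotated start to 50 bases after it. Of the 10 members, 7 had an entry, and Fut9, Pecam1 and Cd24a did not. Capitals mark matches to 4 motifs searched on both strands: the GC box GGGCGG, the CCAAT box CCAAT, the TATA box TATAAA and the AP-1 site TGANTCA. Matches on the opposite strand read as the reverse complement, and positions are those of the first base of a match, counted from 0 at the annotated start.
Kit, chr5:75574737-75575036, plus strand: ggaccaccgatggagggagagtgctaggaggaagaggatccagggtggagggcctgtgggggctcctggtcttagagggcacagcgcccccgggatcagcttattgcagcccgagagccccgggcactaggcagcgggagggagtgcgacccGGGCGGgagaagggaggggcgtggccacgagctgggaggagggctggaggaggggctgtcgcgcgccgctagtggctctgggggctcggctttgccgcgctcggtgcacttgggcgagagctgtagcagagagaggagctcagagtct
Cd9, chr6:125494711-125495010, minus strand: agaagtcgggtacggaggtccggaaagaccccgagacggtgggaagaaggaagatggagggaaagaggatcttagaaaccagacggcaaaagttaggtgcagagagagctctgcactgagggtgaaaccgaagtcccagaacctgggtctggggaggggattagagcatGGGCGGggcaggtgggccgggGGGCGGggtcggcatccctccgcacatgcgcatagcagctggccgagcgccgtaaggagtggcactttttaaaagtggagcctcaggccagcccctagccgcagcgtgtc
Icam1, chr9:21015690-21015989, plus strand: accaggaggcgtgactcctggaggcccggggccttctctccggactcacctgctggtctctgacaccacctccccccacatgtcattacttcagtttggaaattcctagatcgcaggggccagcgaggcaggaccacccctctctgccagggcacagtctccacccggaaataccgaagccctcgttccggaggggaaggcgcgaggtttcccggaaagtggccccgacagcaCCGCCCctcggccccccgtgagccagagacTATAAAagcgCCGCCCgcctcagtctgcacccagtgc
Cd44, chr2:102901616-102901915, minus strand: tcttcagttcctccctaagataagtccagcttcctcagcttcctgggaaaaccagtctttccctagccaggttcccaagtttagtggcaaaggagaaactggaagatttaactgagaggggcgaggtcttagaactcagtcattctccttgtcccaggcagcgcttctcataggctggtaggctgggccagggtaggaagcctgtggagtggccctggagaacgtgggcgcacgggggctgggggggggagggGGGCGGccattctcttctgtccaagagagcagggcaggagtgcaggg
All 4 windows held a GC box, 1 in Kit at -98 from the start, 2 in Cd9 at -81 and -60, 2 in Icam1 at -17 and 23, and 1 in Cd44 at 3. Icam1 also held a TATA box, at 13 after the annotated start. None held CCAAT or the AP-1 letters. Of 32851 RefSeq promoters of the same length, 35.7% held the GC box, 37.4% CCAAT, 13.6% TATAAA and 7.81% the AP-1 letters. The GC content was 69.0% in Kit, 61.3% in Cd9, 64.7% in Icam1 and 58.0% in Cd44, against a median of 52.7% over all promoters (quartiles 45.7% and 61.7%). Of the windows not printed, that of Fut4 held 0 matches to any of these motifs, and the first entries of Alpl and Prom1 held 3 and 1 GC boxes. The first Prom1 entry also held CCAAT at -35 and the AP-1 letters at -88. Second entries held the AP-1 letters at -189 in Prom1, TATAAA on the opposite strand at -192 in Alpl, and a GC box at -102 in Kit. A match of letters is a description and not a binding site.

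Cd44 also had its lowest arrays in P19, but its mean was highest in P19 NTES7. CD44 binds hyaluronan and is used as a marker of mesenchymal and stem-like tumor cells, and its surface level separates stages of reprogramming. Intensities were 12.9, 12.2 and 12.8 in P19, below the median of all probe sets, 40.9, 43.3 and 37.0 in P19 NTES7 and 34.2, 34.5 and 46.7 in R1. The P19 arrays were far below all others, and the arrays of P19 NTES7 and R1 overlapped. The means were 12.7 ± 0.364, 40.4 ± 3.18 and 38.5 ± 7.11 (SD, n = 3). Cd44 rose by 1.59 ± 0.12 on the log2 scale from P19 to R1 (SE; limma adjusted p = 2.99e-07), or by 1.44 without R1 replicate 3. From P19 to P19 NTES7 it rose by 1.67 ± 0.12 (limma adjusted p = 6.98e-07). With 16 added to each intensity these differences were 0.92 and 0.97, both under the fold limit. P19 NTES7 and R1 differed by 0.08, with a 95% interval of -0.18 to 0.35 (limma adjusted p = 0.701).

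For the 3 members called between R1 and P19, the place of P19 NTES7 was written as its log2 difference from P19 over that of R1 from P19, with 0 for no difference from P19 and 1 for the mean of R1. The P19 arrays enter both differences, so no test was made. Kit lay at 0.344 ± 0.0263 (SD over the 3 P19 NTES7 arrays) and Pecam1 at 0.399 ± 0.0715, both nearer to P19. Without R1 replicate 3, Pecam1 lay at 0.478. Cd44 lay at 1.05 ± 0.0724, next to R1, and at 1.16 without R1 replicate 3. Over all 2135 probe sets called between R1 and P19, the median was 0.376 and the quartiles 0.157 and 0.633, so that Kit and Pecam1 lay near the middle of this range and Cd44 above its upper quartile.

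**Figure D2:**
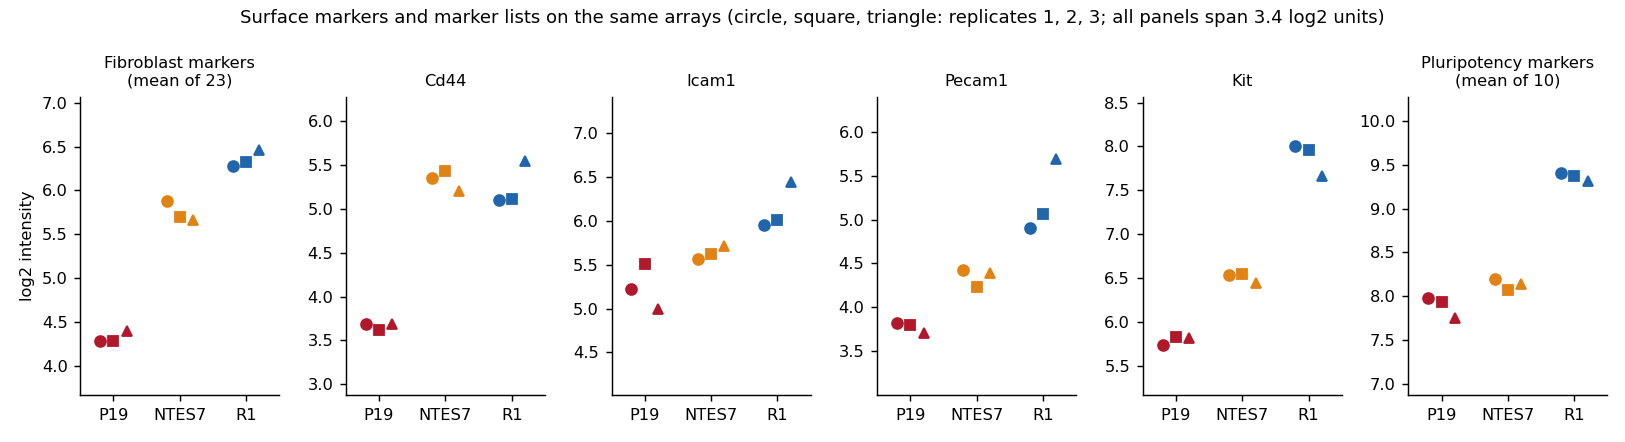
Log2 intensity (vertical axis, the same span in each panel) of Cd44, Icam1, Pecam1 and Kit on each array, beside the mean log2 intensity of 23 fibroblast markers and of 10 pluripotency markers. Circles, squares and triangles are replicates 1, 2 and 3: R1 replicate 3 is the highest R1 array for the fibroblast markers, Cd44, Icam1 and Pecam1 and the lowest for Kit and the mean of the pluripotency markers. Over all 10 members, most of them not shown here, it was the highest R1 array for 8. Single pluripotency markers differed from their mean, since Pou5f1, Tdgf1 and Dppa4 were highest on this array.

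Alpl, the gene of the alkaline phosphatase stain, had overlapping arrays in every pair of lines. Its intensity was 127.8, 124.6 and 93.1 in P19, compared with 107.8, 80.3 and 83.8 in P19 NTES7 and 107.0, 111.6 and 151.9 in R1. Means were 115 ± 19.2, 90.6 ± 15.0 and 123 ± 24.7 (SD, n = 3). R1 and P19 differed by 0.10 on the log2 scale, with a 95% interval of -0.26 to 0.45 (limma adjusted p = 0.702). The sign of this difference turned without R1 replicate 3, to -0.06, and without P19 replicate 3, to -0.05. P19 NTES7 differed from P19 by -0.34, with an interval of -0.70 to 0.01 (limma adjusted p = 0.181), and from R1 by -0.44, with an interval of -0.79 to -0.09 (limma adjusted p = 0.0669).

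Fut9, the main fucosyltransferase of SSEA-1 in the early mouse embryo, was at 53.2, 56.3 and 65.2 in P19, against 53.2, 43.2 and 37.6 in P19 NTES7 and 38.3, 42.2 and 53.5 in R1. The highest array of either other line lay just inside the P19 range. The means were 58.2 ± 6.24, 44.7 ± 7.91 and 44.7 ± 7.91 (SD, n = 3). Both R1 and P19 NTES7 differed from P19 by -0.39, with a 95% interval of -0.71 to -0.07 in each case (limma adjusted p = 0.0620 for R1 and 0.0905 for P19 NTES7). Between P19 NTES7 and R1 the interval was -0.32 to 0.32 (limma adjusted p = 0.998). Fut4, which can make the same epitope, lay between 5.90 and 10.2 on all 9 arrays, below the median of all probe sets. Its means were 6.40 ± 0.212, 8.30 ± 1.98 and 7.55 ± 1.44, and the log2 differences were 0.22, 0.35 and 0.13 between R1 and P19, P19 NTES7 and P19, and P19 NTES7 and R1 (limma adjusted p = 0.367, 0.198 and 0.668), which at this level is near the array floor.

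Cd24a and Prom1 had their highest means in P19. Cd24a encodes a small, heavily glycosylated, lipid-anchored protein, and its arrays read 60.5, 64.6 and 94.6 in P19, compared with 68.8, 34.5 and 56.3 in P19 NTES7 and 35.2, 38.4 and 42.5 in R1. P19 and R1 did not overlap, and P19 NTES7 spread across the range of both. The means were 73.2 ± 18.6, 53.2 ± 17.3 and 38.7 ± 3.65 (SD, n = 3). Cd24a was 1.86-fold lower in R1 than in P19, a log2 difference of -0.90 ± 0.22 (SE; limma adjusted p = 0.00612) that did not pass the fold limit. Without P19 replicate 1 it was -1.02 and was called, so 1 array decides this call. P19 NTES7 differed from P19 by -0.49 (limma adjusted p = 0.153) and from R1 by 0.40 (limma adjusted p = 0.218).

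Prom1 encodes a pentaspan protein of membrane protrusions that marks neural and other stem cells. It was at 37.7, 39.7 and 52.4 in P19, against 30.01, 27.8 and 31.9 in P19 NTES7 and 26.7, 27.1 and 44.5 in R1. P19 and P19 NTES7 did not overlap, and R1 replicate 3 lay among the P19 arrays while the other R1 arrays lay below all of P19 NTES7. The means were 43.3 ± 8.01, 29.9 ± 2.02 and 32.8 ± 10.2 (SD, n = 3). R1 differed from P19 by -0.43 (limma adjusted p = 0.0907), and by -0.67 without R1 replicate 3, still under the fold limit. P19 NTES7 differed from P19 by -0.52 (limma adjusted p = 0.0639) and from R1 by -0.09 (limma adjusted p = 0.783), a sign that turned to 0.15 without R1 replicate 3.

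**Figure D3:**
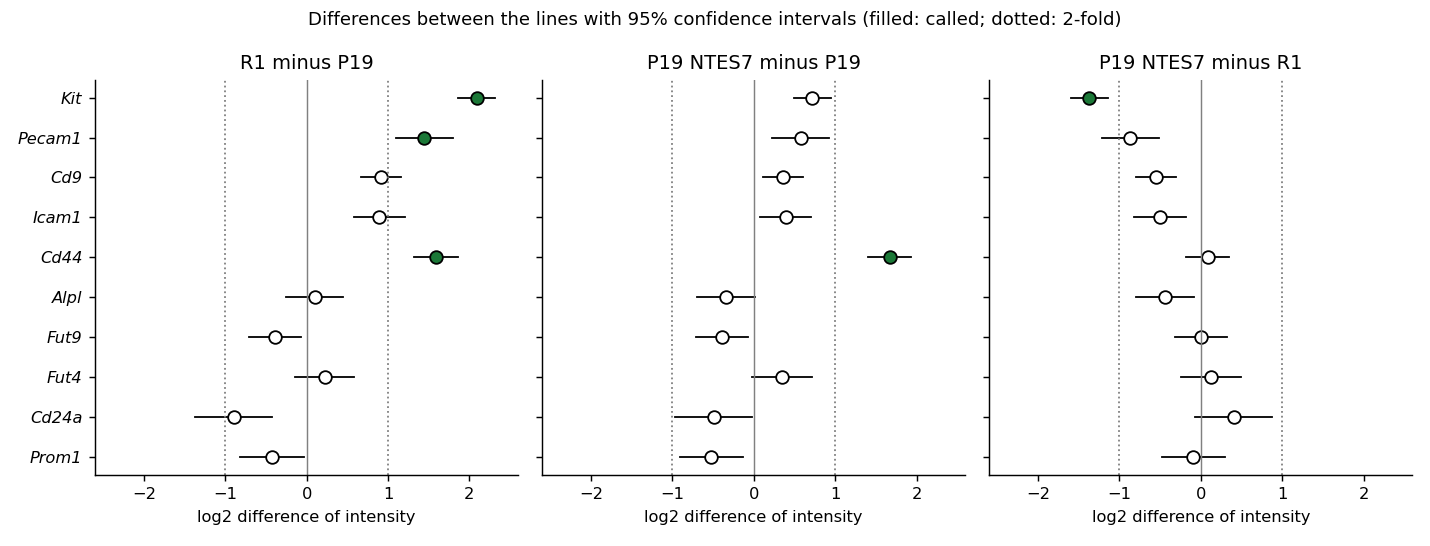
Log2 difference of intensity (horizontal axis) of each surface marker gene between R1 and P19, P19 NTES7 and P19, and P19 NTES7 and R1, with 95% confidence intervals from limma. Filled points are called, which holds for Kit, Pecam1 and Cd44 between R1 and P19, for Cd44 between P19 NTES7 and P19, and for Kit between P19 NTES7 and R1.

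Counted over all members, 3 of 10 were called higher and 0 lower between R1 and P19, where 7.40% of the probe sets on the array passed, with 3.70% in each direction. The adjusted p limit at any fold was passed by 6 members in this comparison (23.0% of all probe sets), which were Pecam1, Icam1, Kit, Cd9 and Cd44 with higher and Cd24a with lower values in R1. The arrays of the same 6 genes did not overlap (45.3% of all probe sets). Between P19 NTES7 and P19, 1 member was called, in the higher direction (2.91% of all probe sets, 1.55% higher and 1.36% lower), Kit and Cd44 passed the adjusted p limit (11.3%), and 6 did not overlap (34.4%). Between P19 NTES7 and R1, 1 member was called, in the lower direction (4.52%, 1.99% higher and 2.53% lower), 3 passed the adjusted p limit (17.1%), and 4 did not overlap (36.6%). With only 10 members these shares are coarse. The median log2 difference of the members was 0.56, 0.35 and -0.27 in the 3 comparisons, against 0.03, 0.03 and 0.01 over all probe sets. The members were chosen with earlier results of these data known, so these shares and medians are a description and not a test. All probe sets also include 5443 without a symbol, unlike the members. Without R1 replicate 3, 3, 1 and 1 members were called in the 3 comparisons.

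The genes that make or bind these markers were then described, list by list. The shares of all probe sets called were 7.40% (R1 against P19), 2.91% (P19 NTES7 against P19) and 4.52% (P19 NTES7 against R1). These shares stand beside the counts of every list below. Fucosylation and Lewis x synthesis, the pathway around Fut4 and Fut9, had 17 measured genes, of which 0 were called higher and 1 lower between R1 and P19, 1 higher and 0 lower between P19 NTES7 and P19, and 0 between P19 NTES7 and R1. The median log2 differences were -0.05, -0.02 and 0.16. Slc35c1, the Golgi transporter of GDP-fucose, fell by 2.19-fold from 22.0 ± 0.942 in P19 to 10.1 ± 0.924 in R1 (limma adjusted p = 3.81e-05), a level below the array median, and was at 20.0 ± 4.69 in P19 NTES7. With 16 added to each intensity its log2 difference was -0.54 and the call was lost, and the filter on dim probe sets removed it. B4galt1, a galactosyltransferase that builds the N-acetyllactosamine backbone of Lewis x, rose in P19 NTES7, from 107 ± 4.98 to 331 ± 37.5 (3.07-fold, limma adjusted p = 1.60e-07), with 206 ± 4.57 in R1. Fut7, the leukocyte fucosyltransferase, was at 10.5 ± 1.20, 10.9 ± 0.683 and 9.42 ± 0.186, below the array median in all lines.

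Globo-series and ganglioside synthesis, the pathway of other stage-specific embryonic antigens, had 13 measured genes with medians of 0.20, 0.03 and -0.13. Only B4galt6, a lactosylceramide synthase, was called among them, higher in R1 at 95.01 ± 5.95 than in P19 at 47.0 ± 0.979 (2.02-fold, limma adjusted p = 3.60e-06), and lower in P19 NTES7 at 28.6 ± 3.07 than in R1 (3.33-fold, limma adjusted p = 3.91e-08). The call between R1 and P19 lay at the fold limit and was lost without P19 replicate 3, without R1 replicate 1 and without R1 replicate 2 (log2 differences of 0.999, 0.979 and 0.999), with arrays centred on the median (0.99) and with 16 added (0.82). Among 20 measured tetraspanins and their partners, the family of Cd9, 3 were called higher in R1 than in P19 and 0 lower, 0 were called between P19 NTES7 and P19, and 1 was called lower in P19 NTES7 than in R1. The median log2 differences were 0.04, 0.05 and -0.10. Cd81, the closest relative of Cd9 and a partner of it on eggs, was at 290 ± 15.5 in P19, compared with 274 ± 23.7 in P19 NTES7 and 675 ± 19.4 in R1, and it was the member of this list lower in P19 NTES7 than in R1 (2.47-fold, limma adjusted p = 3.97e-07). Tspan6 rose from 37.3 ± 3.66 in P19 to 90.9 ± 9.37 in R1 and Cd63, a tetraspanin of late endosomes, from 26.2 ± 0.492 to 57.3 ± 5.10, a call lost for Cd63 with 16 added (0.79 on the log2 scale).

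Of 10 measured genes of alkaline phosphatases and phosphate handling, 0 were called in any comparison, with medians of 0.05, -0.02 and -0.15. Alppl2, an alkaline phosphatase of the early embryo, was at 9.28 ± 1.06 in P19, against 9.73 ± 0.962 in P19 NTES7 and 9.89 ± 1.54 in R1, below the array median. Around Kit, 17 genes of its ligand and signal transduction were measured, and 1 was called higher and 1 lower between P19 and R1, 1 higher between P19 and P19 NTES7 and 1 lower between R1 and P19 NTES7, with medians of -0.22, -0.06 and 0.09. Gab1, a docking protein that links receptor tyrosine kinases to the SHP2 phosphatase and PI3 kinase, had the order of Kit, with 37.3 ± 6.84 in P19, compared with 109 ± 8.23 in P19 NTES7 and 314 ± 6.06 in R1. It rose 8.52-fold from P19 to R1 (limma adjusted p = 4.79e-10) and 2.94-fold from P19 to P19 NTES7 (limma adjusted p = 1.36e-06). Fyn, a Src-family kinase, was at 111 ± 4.65, 64.1 ± 15.1 and 39.0 ± 12.4, and it fell between P19 and R1 (2.94-fold, limma adjusted p = 2.60e-05). Kitl, which encodes the KIT ligand stem cell factor, was at 15.7 ± 0.195, 22.2 ± 2.01 and 27.7 ± 3.59, and was not called, with 1.75-fold between R1 and P19 (limma adjusted p = 6.18e-05).

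Among 18 measured ligands and linkers of CD44, ICAM1, PECAM1 and CD24, 2 were called higher in R1 than in P19 and 0 lower, 0 between P19 NTES7 and P19, and 1 lower in P19 NTES7 than in R1. The medians were 0.31, 0.12 and -0.12. Vcan, the hyaluronan-binding matrix proteoglycan versican, was at 46.6 ± 8.54 in P19, against 33.9 ± 3.33 in P19 NTES7 and 204 ± 6.49 in R1, so that it was 4.42-fold higher in R1 than in P19 and 6.05-fold lower in P19 NTES7 than in R1. Itgav, the integrin chain alpha v, rose from 72.2 ± 4.19 in P19 to 158 ± 2.43 in R1 and was at 85.0 ± 8.32 in P19 NTES7, a call that was lost with 16 added (0.98). Both were thus called between R1 and P19 but not between P19 NTES7 and P19, where Cd44 was called.

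Of 24 other measured surface proteins of ES and EC cells, 4 were called higher (Cdh1, Thy1, Tfrc and Sdc4) and 4 lower (Itga6, Cd59a, Gpc3 and Igf1r) in R1 than in P19, with a median of 0.24. Over all probe sets, 3.70% were called in each direction in this comparison. Between P19 NTES7 and P19, Cdh1 was higher and Itga6 lower, with a median of 0.03. Between P19 NTES7 and R1, Cd59a and Gpc3 were higher and Cdh1 lower, with a median of -0.27. Cdh1, which encodes E-cadherin, had the order of Kit and Pecam1, at 85.3 ± 26.8 in P19, compared with 174 ± 17.4 in P19 NTES7 and 473 ± 39.0 in R1, a 5.75-fold rise from P19 to R1 (limma adjusted p = 2.68e-07). Its call between P19 NTES7 and P19 was lost without P19 replicate 3 (0.78) and with 16 added (0.94). Among the genes called between R1 and P19, Thy1 and Sdc4 lost the call without R1 replicate 3 (0.93 and 0.97), Sdc4 also without P19 replicate 2 (0.95), Tfrc without P19 replicate 1 or 2 (0.98 and 0.97) and Igf1r without R1 replicate 1 (-0.96), all of them close to the fold limit. Cd59a, a complement inhibitor, fell from 108 ± 18.6 in P19 to 20.5 ± 2.29 in R1 and was at 69.1 ± 6.85 in P19 NTES7. Gpc3, the heparan sulfate proteoglycan glypican-3, was at 772 ± 70.0, 792 ± 21.4 and 186 ± 7.36. Itga6, the laminin-binding integrin chain alpha 6, fell in both P19 NTES7 and R1, from 589.9 ± 39.1 to 269.5 ± 22.5 and 189 ± 20.4. Epcam, an epithelial adhesion molecule high on ES cells, was at 267 ± 24.2, 181 ± 26.3 and 237 ± 32.6 and was not called.

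**Figure D4:**
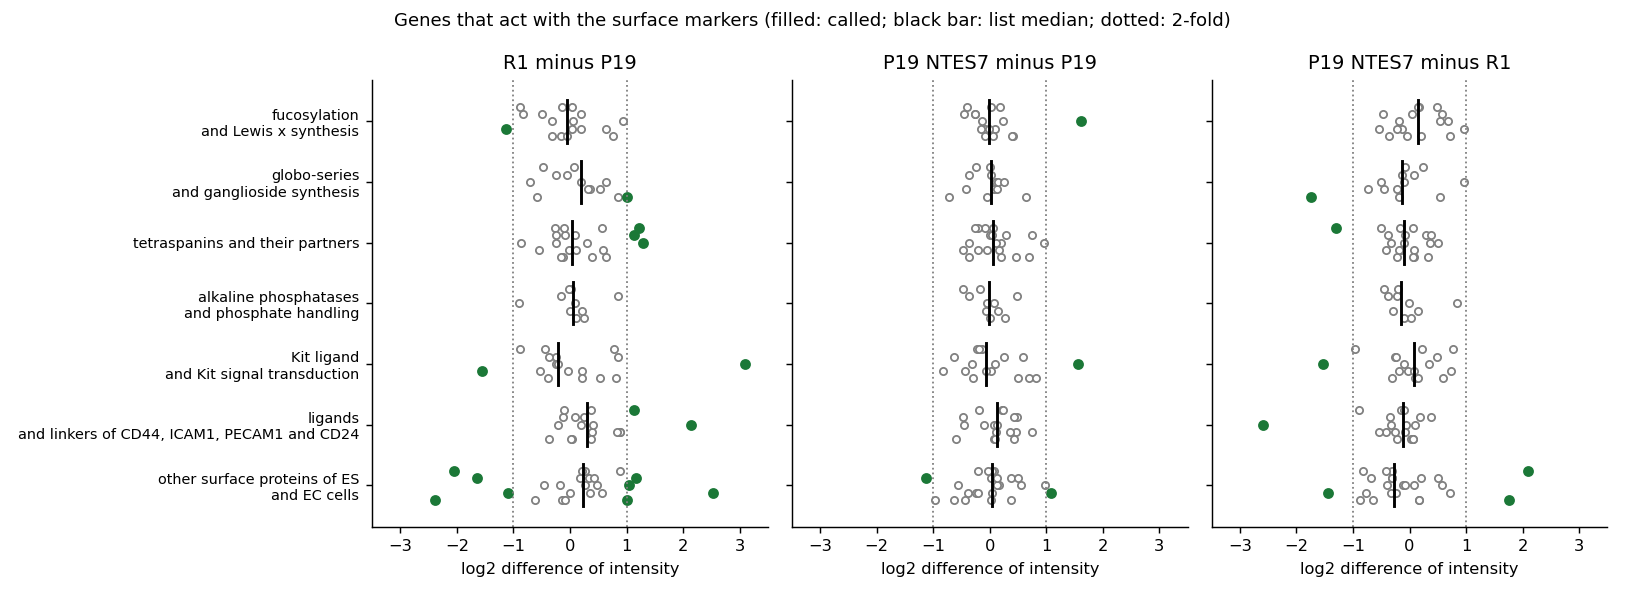
Log2 difference of intensity (horizontal axis) of the measured genes of 7 lists around the surface markers, 1 point a gene, in the 3 comparisons. Filled points are called and black bars are list medians, which lie between -0.27 and 0.31 in all lists and comparisons.

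Genes with a pattern like that of a called member were found by centring each gene on its own mean over the 9 arrays and taking the root mean square difference of log2 values. The nearest to Kit were Gadd45a, a growth arrest gene, at 0.114, and Vegfc, a lymphatic growth factor, at 0.117. Pecam1 was most closely followed by Parp14, an ADP-ribosyltransferase, at 0.0759, and by Anxa8, an annexin, at 0.119. Those nearest to Cd44 were Rnf17, a germ cell gene, at 0.106, and Adamts9, a metalloprotease of versican and aggrecan, at 0.111. Gadd45a, for example, had intensities of 31.6 ± 2.33, 50.6 ± 1.18 and 139 ± 1.79 in P19, P19 NTES7 and R1, and Parp14 12.7 ± 0.311, 19.1 ± 1.69 and 33.8 ± 9.07. These genes were picked for their likeness, so their values support nothing about the members.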

How the data were processed

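Total RNA, 100 ng for each array, was hybridised to the GeneChip Gene 1.0 ST Array in 3 arrays for each of P19, P19 NTES7 and R1. The authors deposited intensity values on the linear scale, which the methods describe as normalized by Robust Multichip Average (RMA), and these entered the fit unchanged. The methods also state scaling to a median of 500, but the deposited array medians are 16.5 to 17.5. The 3 arrays of a line limit the precision. Log2 intensities of all 28853 probe sets were fitted in 1 model with a mean for each line in limma (version 3.58.1, R version 4.3.3). P-values were adjusted by Benjamini-Hochberg within a comparison, over the whole array. A call needed an adjusted p under 0.01 together with a fold over 2. Errors are SDs of intensities and standard errors or 95% intervals of log2 differences.

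Of the probe sets, 21789 carried 1 symbol in the platform annotation, 1621 several and 5443 none, and only those with 1 symbol were named. Named genes were the 10 members, up to 4 called genes of each of 7 lists with the largest differences, Fut7, Kitl, Alppl2 and Epcam whatever their result, up to 2 markers for each cell type besides Pou5f1 and Sox2, and the 2 genes nearest to each member whose line means span over 1 on the log2 scale. The other genes given by name were called members of a list, markers below the array median, or Coro1a, Tdgf1 and Sparc, named after their values were seen. The members and lists were chosen with earlier results of these data known. Fut1, B4galt2, Tspan7, Enpp1, Lyn, Hyal1, Spp1, Selp, Cd38 and Fbn1 were not analysed here. The fit was tested on simulated data. Alternatives were array centring, quantile normalization, adding 16 before log2, a filter on dim probe sets, the mean of all probe sets of a gene, fits of the compared lines alone, the replicate number as a block, another threshold, the methods' analysis of variance and leaving out each array. Promoter sequences are from RefSeq, GRCm38.p6.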

Additional observations from a re-analysis of the deposited data

How the results depend on the processing

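Of 537 values of members recomputed under an alternative, 513 kept their direction and their side of the threshold, 4 lost the call, 12 gained it and 8 changed sign, all 8 of them with 1 array left out and in differences that were not called. Of the 12 gains, 9 came from the looser threshold alone, an adjusted p under 0.05 with no fold limit, and 3 from leaving out 1 array. Adding 16 to each intensity compresses low values: 1088, 412 and 709 probe sets were then called (R1 against P19, P19 NTES7 against P19 and P19 NTES7 against R1), 1 and 0 members in the first and second of these comparisons, and 1, 1 and 5 genes of the fucosylation list, the list of ligands and linkers and the list of other surface proteins. With an adjusted p under 0.05 and no fold limit, 9282, 5417 and 7304 probe sets passed, with 6, 4 and 4 members. In any comparison, 10 of 17 fucosylation, 10 of 13 globo-series, 11 of 20 tetraspanin and 4 of 10 alkaline phosphatase genes then passed. So did 14 of 17 Kit signaling, 12 of 18 ligand and 18 of 24 other surface genes. The share of all probe sets that passed in any comparison was not computed, so these counts have no background beside them. With dim probe sets left out, 1 gene of the fucosylation list was called, and under quantile normalization Kit lay at 0.370 between P19 and R1. The methods' analysis of variance is 1 test over all 3 lines, to which the fold of a pair was added. With the fold between R1 and P19 it called 2 members, without Pecam1.

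Leaving out each array in turn, members called ranged from 3 to 4 (R1 against P19) and from 1 to 2 (P19 NTES7 against R1), the alkaline phosphatase list from 0 to 1, the globo-series list from 1 to 2, and the places of Pecam1 and Cd44 from 0.360 to 0.478 and from 1.004 to 1.16. Alpl ranged from -0.061 to 0.19 between R1 and P19, and between P19 NTES7 and R1 Fut4 ranged from -0.044 to 0.31, Fut9 from -0.13 to 0.14 and Prom1 from -0.22 to 0.15. The single changes of sign were those of Alpl between R1 and P19 (to -0.05 without P19 replicate 3 and -0.06 without R1 replicate 3), and, between P19 NTES7 and R1, those of Fut9 (to 0.02 and 0.12 without P19 NTES7 replicates 2 and 3 and 0.14 without R1 replicate 3), Fut4 (to -0.04 without P19 NTES7 replicate 3 or R1 replicate 3) and Prom1 (to 0.15 without R1 replicate 3).

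Replicate numbers did not pair the arrays: correlations of the deviations of same-numbered arrays ran from -0.223 to 0.0403. With the replicate number as a block, 3, 1 and 1 members and 2136, 837 and 1302 probe sets were called, and the block changed no call of a member. Intensities near the array floor, as for Fut4 everywhere and for Pecam1 and Cd44 in P19, limit what a fold means.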

Other observations

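Markers of other cell types that cultures of pluripotent cells can form were read on the same arrays. Over all probe sets, 7.40% (R1 against P19), 2.91% (P19 NTES7 against P19) and 4.52% (P19 NTES7 against R1) were called. Of 10 genes of extraembryonic endoderm, 0 were called between R1 and P19 and between P19 NTES7 and R1, by limma's adjusted p with the fold limit, and 1 between P19 NTES7 and P19. That gene was Gata6, a transcription factor of primitive endoderm, with a call lost without P19 replicate 1, without P19 NTES7 replicate 1, with arrays centred on the median and with 16 added (0.995, 0.996, 0.98 and 0.63 on the log2 scale). It was at 17.6 ± 0.999 in P19, against 35.8 ± 1.72 in P19 NTES7 and 28.7 ± 2.33 in R1 (means ± SD, n = 3 arrays). Dab2, an endocytic adaptor of the same lineage, was at 72.8 ± 4.33, 44.0 ± 3.77 and 37.9 ± 8.89. The summed intensity of the list ran from 787 to 884 in P19, with a range of 718 to 768 in P19 NTES7 and of 867 to 906 in R1. Most of this sum was Sparc, also counted as a fibroblast marker, with means of 534, 389 and 454 in the same order. The mean log2 intensity of the list put P19 and P19 NTES7 in the other order. It ran from 4.748 to 4.878 in P19, from 4.937 to 5.002 in P19 NTES7 and from 4.991 to 5.048 in R1. Of 7 neural progenitor genes, 1 was called higher and 2 lower in R1 than in P19. Zic1, a zinc finger factor of the neural plate, was at 94.9 ± 10.8 in P19, against 22.5 ± 2.28 in P19 NTES7 and 11.8 ± 0.118 in R1, and it was called lower in both lines against P19. Nes, the intermediate filament gene nestin, was at 75.6 ± 11.3, 75.2 ± 8.34 and 28.8 ± 3.98, and was lower in R1 than in either other line. Pax6, a transcription factor of neural progenitors, was the gene called higher in R1, at 10.2 ± 1.47, 10.3 ± 0.494 and 26.4 ± 3.63, a call that was lost with 16 added (0.69). The other 4 genes of the list, Sox1, Neurog2, Pax3 and Dcx, were below the array median in all lines, as were Pax6 in P19 and P19 NTES7 and Zic1 in R1.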
